A study of Homo sapiens with 8 samples.

Results

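The proteasome genes examined here are the 42 genes, of 58828 listed in the count tables, that encode its subunits, its activators, 3 chaperones of the regulatory base and the core chaperone POMP. They were chosen by symbol: PSMA1 to PSMA7, PSMB1 to PSMB10, PSMC1 to PSMC6, PSMD1 to PSMD14, PSME1 to PSME4 and POMP. All 42 were listed, had reads and passed the filter on low counts, together with 22418 genes in all. RNA was sequenced from 22RV1 and DU145 cells, both established human prostate cancer lines. Each line carried a lentiviral, doxycycline-inducible construct, selected with puromycin, which was either an empty vector (Vector) or HA-tagged PAGE4, a prostate-associated protein. Doxycycline was given to cells of both constructs. The cells then received PBS or 200 mM H2O2, the dose given by the labels, for 12 h. The study's methods name the same dose, while legends of other experiments on such cells name lower ones. Each of the 8 conditions has 1 library, so the treatment is repeated only across lines and constructs, and nothing in the labels says that the libraries of a line came from independent cultures. In bulk RNA, a change in the kinds of cells present and a change in RNA per cell cannot be told apart.

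The proteasome is the protease that degrades most ubiquitin-tagged proteins. Its core particle is a barrel of alpha rings, which form the gate, and beta rings, which hold the proteolytic sites. The regulatory particle, which binds ubiquitin-tagged proteins, has a base with 6 ATPases that unfold substrates. Its lid, made of non-ATPase subunits, removes ubiquitin. In interferon-exposed cells, PSMB8, PSMB9 and PSMB10 replace the constitutive catalytic subunits, and the PSME1 and PSME2 proteins form an activator that caps the core independently of ubiquitin. When proteasome activity falls short, the membrane-bound factor NRF1, encoded by NFE2L1, is processed and raises transcription of subunit genes through antioxidant response elements.

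Depth lay between 25482984 and 43310401 counts a library (median 29843277), and each H2O2 library was shallower than its PBS partner. The 42 genes took 0.434% to 0.619% of all counts. PAGE4 had 0 or 1 read in the 4 Vector libraries and 1001 to 1489 reads in the 4 PAGE4 libraries. All 6 luminal prostate markers tested were higher in 22RV1, and in the DU145 list 4 of 6 markers were higher in DU145, while LGALS1 went the other way and CD44 was not called. Markers of leukocytes and endothelium (PTPRC, CD3E, PECAM1) had 0 to 10 reads. Mitochondrial genes took 8.97% to 16.5% of counts and were lower with H2O2 in every pair of libraries. In 22RV1 this share went from 12.3% to 9.19% in Vector cells and from 10.2% to 8.97% in PAGE4 cells. In DU145 it went from 16.5% to 11.2% and from 14.6% to 10.9%. Their part in the results below was not tested.

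Levels are given as CPM, read counts brought to an equal library size with TMM scaling across the 8 libraries. Compared per kb of transcript, 2 beta subunits of the core particle led, while other core subunits lay across the range. PSMB4, a non-catalytic beta subunit, had the highest median, 441 CPM per kb, and PSMB3, of the same ring, followed with 205 CPM per kb. The libraries of these 2 genes did not overlap, the lowest for PSMB4 being 332 and the highest for PSMB3 being 279 CPM per kb. The next genes in order, PSMD4 at 163, PSMA7 at 159, PSMB7 at 156 and PSMB6 at 155 CPM per kb, had ranges that overlapped one another. The inducible catalytic subunits lay at the other end, with medians of 3.44 CPM per kb for PSMB10, 1.57 for PSMB8 and 0.681 for PSMB9. The order rests on 1 annotated transcript length per gene. PSMB2, at 4426 bases, had a median of 52.3 CPM per kb, while PSMB3 has 762 bases. Before division by length, PSMB2 had medians of 199 CPM in 22RV1 and 233 in DU145, above 124 and 189 for PSMB3. Several low values are also uncertain because the transcript overlaps another annotated gene, which can take or add reads. The overlap covered 100% of the PSMA2 transcript, 81.4% of PSMA6, 67.0% of PSMA1 and 56.1% of PSMB10, each by a gene on the same strand. On the opposite strand, NRDE2 covered 83.2% of PSMC1, and a second gene covered 51.6% of PSMD7.

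**Figure D1:**
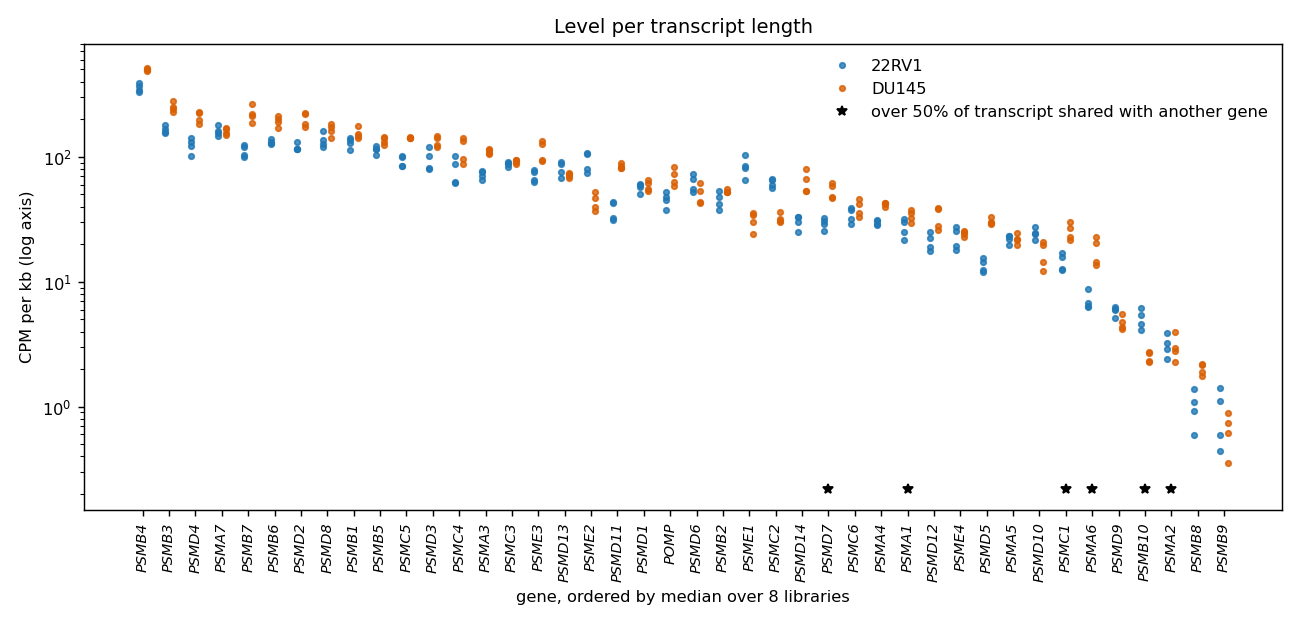
Level of the 42 genes in CPM per kb of transcript (log axis), 1 point per library, 4 libraries of 22RV1 (blue) and 4 of DU145 (orange), ordered by the median over the 8 libraries. Stars mark the 6 genes whose transcript is covered over 50% by another gene, and the inducible subunits PSMB8 and PSMB9 stand lowest.

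The first comparison asked how H2O2 affected the proteasome genes, taking the 4 pairs of H2O2 and PBS libraries of the same line and construct. With H2O2, 3 ATPases, 4 lid subunits, the catalytic subunit PSMB7, the activator PSME3 and the chaperone POMP rose, while PSME1 and PSME2 fell. With edgeR's quasi-likelihood test, adjusted over all genes tested at a threshold of 0.05, 10 of the 42 genes were higher and 2 were lower with H2O2. Over all 22418 genes, 8.89% were called higher and 11.2% lower, and the members' shares were 23.8% and 4.76%. The median log2 fold change of the members was 0.13, beside -0.03 over all genes tested. Of the 42 genes, 22 were higher with H2O2 in all 4 pairs and 2 were lower in all 4, against 19.19% and 21.55% of all genes. Scaling by total counts instead of TMM, chosen after seeing the data, gave 16 higher and 1 lower. The count of 10 higher depended on each of the pairs. PSMC4 was the only member called higher when the 22RV1 Vector pair, the DU145 Vector pair or the DU145 PAGE4 pair was omitted. Without the 22RV1 PAGE4 pair, 8 were called higher, among them PSMA6, which is outside the 10. POMP, PSMB7 and PSMD3 lost their calls there, and the gene called lower was PSMD10. Without either of the Vector pairs, 0 genes were called lower in edgeR's test.

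PSMC4 is an ATPase of the regulatory base, on chromosome 19 of GRCh38 from 39971165 to 39981764. In the order 22RV1 Vector, 22RV1 PAGE4, DU145 Vector and DU145 PAGE4, which is kept throughout, PSMC4 stood at 111, 108, 155 and 170.1 CPM with PBS and at 179, 153, 233 and 247 CPM with H2O2. Every H2O2 library of a line lay above both of its PBS libraries. The log2 fold change was 0.58 (SE 0.08, 4 pairs, adjusted p = 0.0040 in edgeR's test), and PSMC4 kept this call under all 9 alternative settings. Its fellow ATPase PSMC3 had the lowest value of that class. PSMC3 stood at 135, 141, 145 and 147 CPM with PBS and at 138, 129, 136 and 139 CPM with H2O2, a log2 fold change of -0.07 (SE 0.08, adjusted p = 0.61 in edgeR's test). The ratio of PSMC4 to PSMC3 CPM accordingly went from 0.818 to 1.30, from 0.763 to 1.18, from 1.07 to 1.72 and from 1.16 to 1.78 in the 4 pairs. Both genes were picked as the highest and lowest of their class in this test, so the ratio adds no evidence beyond their fold changes. Of the 6 ATPases, PSMC1 and PSMC6 were also called, with log2 fold changes of 0.37 (SE 0.08) and 0.35 (SE 0.09). PSMC2, PSMC3 and PSMC5 did not pass the test, and the PSMC1 transcript is the one overlapped by NRDE2.

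Among the 11 lid and other non-ATPase subunits of the mature particle, PSMD12, PSMD6, PSMD14 and PSMD3 were higher and none was lower in edgeR's test over 4 pairs. Of all genes, 8.89% were called higher and 11.2% lower. PSMD12, a lid scaffold subunit on chromosome 17 from 67337916 to 67366605, was at 77.1, 82.8, 122 and 113 CPM with PBS and at 109, 97.4, 168 and 169 CPM with H2O2. It was higher with H2O2 in each pair, least in 22RV1 PAGE4 cells, with a log2 fold change of 0.44 (SE 0.09, adjusted p = 0.015 in edgeR's test). PSMD14, the deubiquitinase of the lid, had a log2 fold change of 0.37 (SE 0.10), the lid subunit PSMD6 0.38 (SE 0.09) and the lid subunit PSMD3 0.34 (SE 0.09). The base chaperones PSMD5, PSMD9 and PSMD10, which leave before the particle is complete, were not called. PSMD10, also known as gankyrin, was at 40.5, 35.6, 30.4 and 29.1 CPM with PBS and at 31.7, 35.9, 18.0 and 21.2 CPM with H2O2. It was lower in 3 of 4 pairs, with a log2 fold change of -0.38 (SE 0.14, adjusted p = 0.09 in edgeR's test), and in the fit within DU145 it was called at -0.60 (SE 0.13).

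In the core particle, 1 gene of 17 was called higher and none lower, where 8.89% and 11.2% of all genes were called. None of the 7 alpha ring genes passed edgeR's test, with log2 fold changes from 0.02 for PSMA4 to 0.46 for PSMA6, while PSMA1 and PSMA6 had an unadjusted p under 0.05 and were called by DESeq2's Wald test. PSMA6 was at 6.53, 6.39, 14.0 and 14.8 CPM with PBS and at 8.96, 6.93, 21.1 and 23.3 CPM with H2O2, higher in each pair but not called (SE 0.15, adjusted p = 0.06 in edgeR's test over 4 pairs). These counts are among the uncertain ones, since a neighbouring gene model covers most of the transcript. PSMA4 was at 124, 127, 188 and 188 CPM with PBS and at 137, 134, 174 and 182 CPM with H2O2, higher in 22RV1 and lower in DU145. Of the non-catalytic beta genes, PSMB1 was at 100.3, 114, 125 and 129.8 CPM with PBS and at 122, 126, 137 and 157 CPM with H2O2. Its log2 fold change was 0.21 (SE 0.08, adjusted p = 0.12 in edgeR's test). PSMB3 had the lowest value of that class, -0.06 (SE 0.09), from 128, 119.7, 192 and 213 CPM with PBS to 137, 119, 175 and 185 CPM with H2O2.

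The catalytic subunits did not move as a group. PSMB7, which carries the trypsin-like site, was at 97.2, 102, 185 and 207 CPM with PBS and at 122, 118, 218 and 258 CPM with H2O2. It was higher in each pair, with a log2 fold change of 0.27 (SE 0.08, adjusted p = 0.047 in edgeR's test). PSMB5, with the chymotrypsin-like site, was at 108, 121, 148 and 152 CPM with PBS and at 119.9, 128, 129 and 138 CPM with H2O2. PSMB6, with the caspase-like site, was at 105, 106, 166 and 176 CPM with PBS and at 115, 109, 140.0 and 158 CPM with H2O2. Both were higher with H2O2 in the 22RV1 pairs and lower in the DU145 pairs, and neither was called over 4 pairs. POMP, which assembles the beta ring, was at 50.1, 60.1, 83.9 and 78.7 CPM with PBS and at 63.5, 70.1, 97.6 and 111 CPM with H2O2. It was higher in each pair, with a log2 fold change of 0.32 (SE 0.09, adjusted p = 0.044 in edgeR's test). PSMB7 and POMP both lost their calls when any of the 4 pairs was omitted and without the filter on low counts.

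The inducible subunits were read too rarely to follow. PSMB8 had 55, 42, 58 and 67 reads with PBS and 26, 44, 49 and 61 with H2O2, and PSMB9 had 64, 18, 25 and 17 reads with PBS and 44, 17, 9 and 19 with H2O2. PSMB10 stood at 5.28, 4.02, 2.70 and 2.21 CPM with PBS and at 6.02, 4.49, 2.29 and 2.63 CPM with H2O2. Summed, the inducible subunits made up 0.94% to 2.50% of the CPM of the 6 catalytic genes. None was called with H2O2 in edgeR's test, at an unadjusted p under 0.05 or in DESeq2's Wald test. Their SEs were 0.20 to 0.40 on the log2 scale, so that changes of the size seen in the other subunits were not detectable at this depth.

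The activators split into opposite directions. PSME1 and PSME2 lie close together on chromosome 14, from 24136163 to 24138967 and from 24143362 to 24147570, on opposite strands. PSME1 was at 81.8, 100.4, 33.3 and 34.3 CPM with PBS and at 62.7, 77.9, 23.3 and 29.1 CPM with H2O2. PSME2 was at 84.2, 84.4, 41.6 and 37.1 CPM with PBS and at 62.9, 59.0, 31.3 and 29.3 CPM with H2O2. Each was lower with H2O2 in all 4 pairs, and the 22RV1 libraries lay above all DU145 libraries. The log2 fold changes were -0.37 (SE 0.09, adjusted p = 0.029 in edgeR's test) for PSME1 and -0.42 (SE 0.09, adjusted p = 0.017) for PSME2. PSME1 was no longer called with total counts or when any of the 4 pairs was omitted. PSME2 lost its call without the 22RV1 Vector, 22RV1 PAGE4 or DU145 Vector pair.

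PSME3, which forms a nuclear activator of its own, was at 199, 207, 298 and 295 CPM with PBS and at 242, 250.2, 428 and 402 CPM with H2O2. It was higher in each pair, with a log2 fold change of 0.38 (SE 0.09, adjusted p = 0.020 in edgeR's test). The ratio of PSME1 plus PSME2 to PSME3 CPM was therefore lower in every pair, from 0.834 to 0.519, from 0.894 to 0.547, from 0.251 to 0.127 and from 0.242 to 0.145. PSME4, a large single-chain activator, was at 129, 139, 182 and 166 CPM with PBS and at 199, 186, 185 and 176 CPM with H2O2. Its log2 fold change of 0.29 (SE 0.12) over 4 pairs was not called (adjusted p = 0.12 in edgeR's test), and the 22RV1 pairs were farther apart than the DU145 pairs.

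**Figure D2:**
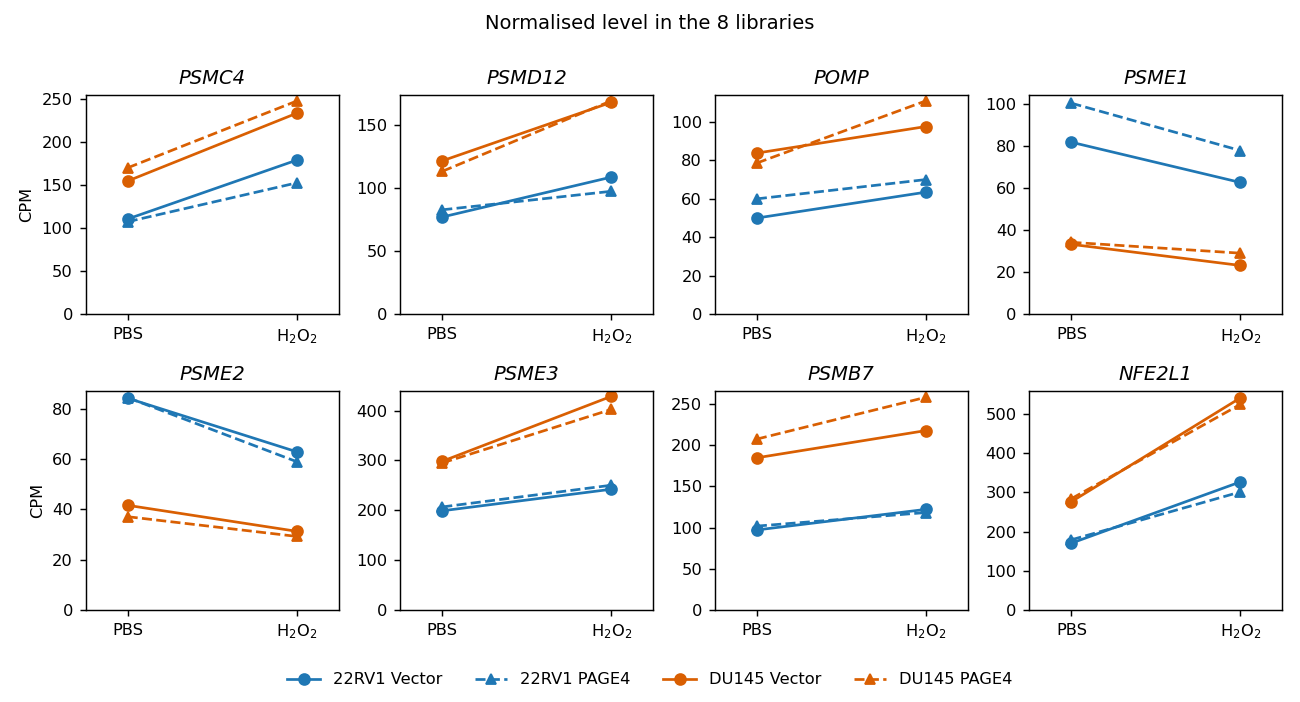
CPM of 7 proteasome genes and of NFE2L1 in the 8 libraries, with PBS on the left and H2O2 on the right of each panel and a line joining the 2 libraries of a pair (22RV1 blue, DU145 orange, Vector solid with circles, PAGE4 dashed with triangles; each axis starts at 0). PSME1 and PSME2 slope down in all 4 pairs, and the other 6 genes slope up in all 4.

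**Figure D3:**
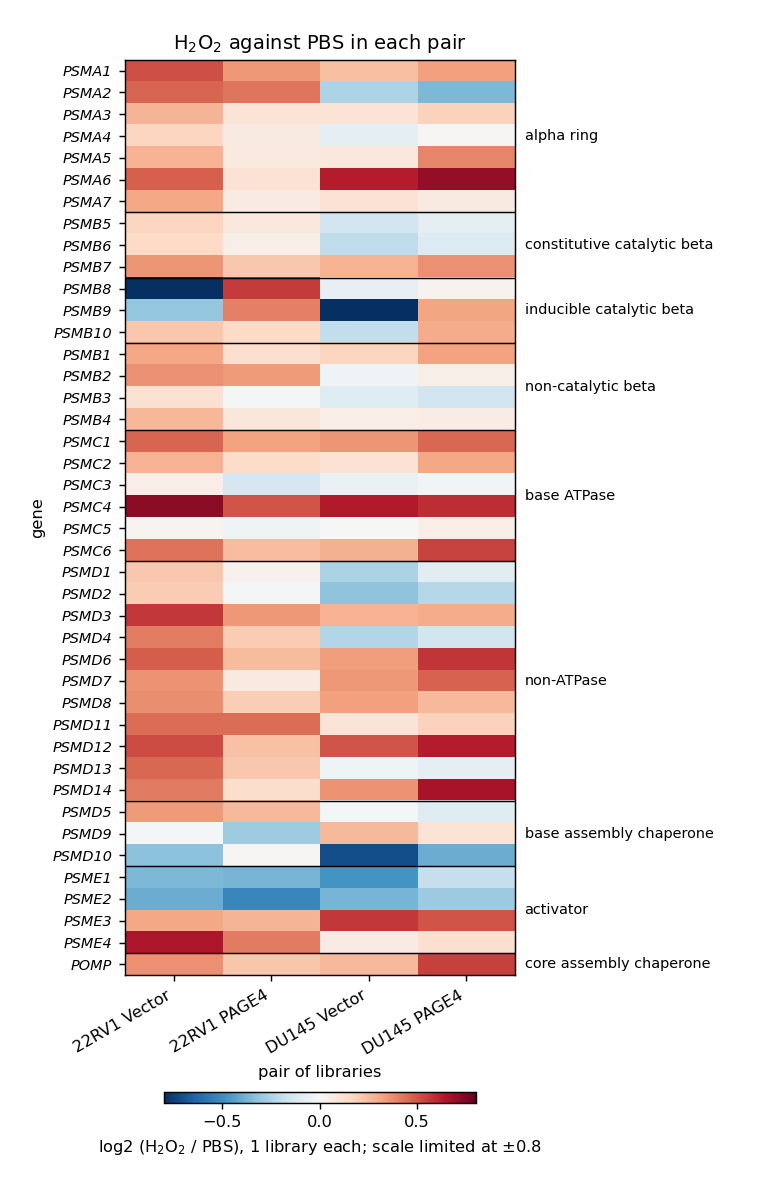
Log2 ratio of H2O2 to PBS for each of the 42 genes (rows, grouped by class) in each of the 4 pairs (columns), from counts divided by size factors within a line; red is higher with H2O2 and blue lower, and colours are limited at 0.8, which PSMB8 in 22RV1 Vector and PSMB9 in DU145 Vector cells exceed. The PSMC4 row is red and the PSME1 and PSME2 rows are blue in all 4 columns, while PSMD4 is blue in the DU145 columns alone.

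Summed over genes, the regulatory particle gained on the core in each pair, without a test. The ratio of regulatory to core CPM was 1.42, 1.46, 1.51 and 1.47 with PBS and 1.52, 1.5004, 1.55 and 1.53 with H2O2. Within a single pair, with 1 library on each side and no replicate check, few genes passed a fold change of 1.5. In 22RV1 Vector cells PSMC4 and PSME4 were over 1.5-fold higher and PSMB8 lower, where 17.7% and 19.7% of all genes passed. In 22RV1 PAGE4 cells 0 members passed, against 14.8% and 15.7%. In DU145 Vector cells PSMC4 and PSMA6 were higher and PSMB9 and PSMD10 lower, against 19% and 21.3%. In DU145 PAGE4 cells PSMA6, PSMD14, PSMD12 and PSMC4 were higher and none was lower, against 19.4% and 21.9%. Member medians were 0.31, 0.15, 0.08 and 0.16 on the log2 scale in the 4 pairs, beside all-gene medians of -0.02, -0.01, -0.01 and -0.01. Intervals on single pairs cover counting error only: in 22RV1 Vector cells, the log2 ratio of 0.72 for PSMC4 had a 95% Clopper-Pearson interval of 0.66 to 0.77.

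Sequence features not used to choose the genes were read from RefSeq promoters of GRCh38.p14, each of 300 bases, 250 before the first transcribed base and 50 from it on. A promoter was matched for 37 of the 42 genes. PSMA7, PSMB1, PSMB6, PSMB7 and PSMD4 had no entry. The core of the antioxidant response element, TGACNNNGC on either strand, was found in 11 of 37 (29.73%), against 13.56% of 27305 promoters. The ETS core CCGGAAG was found in 12 (32.43%), against 10.67%, and the CCAAT box in 17 (45.95%), against 35.7%, both on either strand. Matches to different motifs shared no base in these promoters. By call, the antioxidant element core stood in 3 of the 9 matched genes called higher with H2O2 (PSMC4, PSMD12 and PSMD3), in both genes called lower (PSME1 and PSME2) and in 6 of 26 not called. The ETS core stood in 6 of 9, 0 of 2 and 6 of 26, and CCAAT in 4 of 9, 0 of 2 and 13 of 26. The promoters of the 5 called genes with the antioxidant element core are printed 5′ to 3′ on the gene's strand, with the matching bases in capitals (a match on the opposite strand is shown as its reverse complement), since genes that rose and genes that fell both hold it:
PSMC4: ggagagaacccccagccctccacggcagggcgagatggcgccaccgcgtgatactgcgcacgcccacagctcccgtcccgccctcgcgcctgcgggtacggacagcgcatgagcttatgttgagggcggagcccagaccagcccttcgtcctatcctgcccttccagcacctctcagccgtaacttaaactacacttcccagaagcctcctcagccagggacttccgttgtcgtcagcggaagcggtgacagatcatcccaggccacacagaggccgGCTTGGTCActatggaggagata
PSMD12: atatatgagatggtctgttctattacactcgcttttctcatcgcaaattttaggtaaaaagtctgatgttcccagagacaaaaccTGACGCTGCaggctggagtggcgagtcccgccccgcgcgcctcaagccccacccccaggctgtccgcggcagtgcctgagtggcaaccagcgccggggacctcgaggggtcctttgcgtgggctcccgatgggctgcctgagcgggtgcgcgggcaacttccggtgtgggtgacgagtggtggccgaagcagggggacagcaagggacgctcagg
PSMD3: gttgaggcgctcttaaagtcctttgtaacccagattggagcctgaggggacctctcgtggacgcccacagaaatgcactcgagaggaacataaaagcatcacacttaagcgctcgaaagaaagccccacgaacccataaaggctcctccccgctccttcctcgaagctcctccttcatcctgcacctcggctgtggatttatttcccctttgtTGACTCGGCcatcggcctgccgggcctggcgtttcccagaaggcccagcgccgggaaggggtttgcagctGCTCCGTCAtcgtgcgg
PSME1: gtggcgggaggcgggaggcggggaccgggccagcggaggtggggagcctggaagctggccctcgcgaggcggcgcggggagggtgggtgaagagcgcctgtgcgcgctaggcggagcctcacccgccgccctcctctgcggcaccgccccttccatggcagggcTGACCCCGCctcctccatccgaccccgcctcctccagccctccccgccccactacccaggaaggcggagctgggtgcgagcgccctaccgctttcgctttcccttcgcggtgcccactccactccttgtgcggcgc
PSME2: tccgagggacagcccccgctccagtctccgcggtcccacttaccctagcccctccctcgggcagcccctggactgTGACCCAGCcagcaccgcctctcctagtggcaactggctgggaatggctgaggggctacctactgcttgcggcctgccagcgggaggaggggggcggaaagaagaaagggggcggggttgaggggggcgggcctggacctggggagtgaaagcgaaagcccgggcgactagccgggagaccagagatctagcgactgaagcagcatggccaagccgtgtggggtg
They lie at chr19:39970915-39971214 (plus strand), chr17:67366528-67366827 (minus strand), chr17:39980557-39980856 (plus strand), chr14:24135944-24136243 (plus strand) and chr14:24146561-24146860 (minus strand), in that order. The match begins 27 bases after the first transcribed base in PSMC4, and 165 bases before it in PSMD12, 86 in PSME1 and 175 in PSME2. These starts are those of RefSeq. For PSME2 the whole window lies inside the GENCODE gene span given above, which on the minus strand starts farther upstream, at 24147570. PSMD3 holds a match that begins 37 bases before the first transcribed base and a further match 33 bases after it. A match describes letters in this window, not bound factor.

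The other genes of the pathway were counted in the same edgeR test over 4 pairs, where 8.89% of all genes were called higher and 11.2% lower. Of the 14 tested proteasome assembly and associated genes, 4 were higher and 0 lower with H2O2: AKIRIN2, an adaptor for nuclear import of proteasomes (log2 fold change 0.59, SE 0.11), TXNL1, a thioredoxin-like protein bound to the regulatory particle (0.43, SE 0.11), ADRM1, a ubiquitin receptor (0.43, SE 0.09), and PSMF1, an inhibitor of the core (0.42, SE 0.08). The core chaperones PSMG1 to PSMG4 were not called. Of 11 tested genes of the NRF1 pathway, 3 were higher and 0 lower: MAFF (1.76, SE 0.26) and MAFG (0.66, SE 0.10), small MAF partners of NRF1, and NFE2L1 itself (0.88, SE 0.08, adjusted p = 0.001 in edgeR's test). NFE2L1 was at 171, 179, 276 and 284 CPM with PBS and at 327, 301, 541 and 524 CPM with H2O2, so that each H2O2 library of a line lay above both of its PBS libraries. Of 13 genes for ubiquitin supply and shuttling, 3 were higher and 0 lower: ZFAND2A (1.28, SE 0.21) and ZFAND5 (0.71, SE 0.12), zinc finger proteins that bind the proteasome, and SQSTM1, a receptor for ubiquitinated cargo (1.04, SE 0.22). Of 15 antigen processing and interferon genes, 3 were higher and 3 lower, the largest values being those of IRF1 (1.01, SE 0.18), an interferon-response factor, HLA-E (0.92, SE 0.12), HLA-B (0.62, SE 0.14) and STAT2 (-0.60, SE 0.14).

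The second comparison asked whether the H2O2 effect differed between the lines. In 22RV1, which has 2 pairs and shares its estimate of the spread with DU145 in a fit of all 8 libraries, 17 members were higher and 2 lower with H2O2 in edgeR's quasi-likelihood test, where 12.8% and 14.9% of all genes were called. In DU145, 13 were higher and 6 lower, where 16.9% and 19.8% of all genes were called. Those lower were PSME1 and PSME2 in both lines and, in DU145, also PSMD1, PSMD2, PSMD4 and PSMD10. Member medians were 0.21 in 22RV1 and 0.05 in DU145, beside all-gene medians of -0.002 and -0.03. These counts depended on which pair was kept, and omitting a pair leaves 1 pair in that line. The member median in 22RV1 was 0.14 without its Vector pair and 0.27 without its PAGE4 pair, against 0.21 with both. In DU145, 3 were higher and 3 lower without the PAGE4 pair, and 8 were higher and 0 lower without the Vector pair, where the remaining pair is assumed to vary like the other line. Scaling by total counts gave 29 higher and 1 lower in 22RV1, and it moved the median of all genes there from -0.002 to 0.12.

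The difference itself was called for 7 members, all with the larger value in 22RV1, and for 0 in the other direction by edgeR's test. DESeq2's Wald test called 5 and 0. At an unadjusted p under 0.05, 12 had the larger value in 22RV1 and 0 in DU145. Over all genes, 8.76% were called with a larger value in 22RV1 and 7.54% with a smaller one. PSMD4, a ubiquitin receptor of the regulatory particle, was at 134, 161, 295 and 300.2 CPM with PBS and at 174, 186, 243 and 261 CPM with H2O2. It was higher in both 22RV1 pairs and lower in both DU145 pairs, with log2 fold changes of 0.30 (SE 0.08) and -0.24 (SE 0.08). The difference of 0.53 (SE 0.11, adjusted p = 0.0026 in edgeR's test) kept its call under all 8 alternative settings. PSMD2, a scaffold of the base, was at 338, 338, 645 and 650.1 CPM with PBS and at 383, 334, 501 and 535 CPM with H2O2. Its log2 fold change was 0.08 (SE 0.07) in 22RV1 and -0.32 (SE 0.07) in DU145, a difference of 0.40 (SE 0.10, adjusted p = 0.011 in edgeR's test).

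PSME4, in contrast to PSMD2, differed through its value in 22RV1, with a log2 fold change of 0.52 (SE 0.08) in 22RV1 and 0.05 (SE 0.08) in DU145. Its difference was 0.47 (SE 0.11, adjusted p = 0.0085 in edgeR's test). The lid subunit PSMD13 was at 107, 119, 117 and 117 CPM with PBS and at 145, 139, 111 and 107 CPM with H2O2, higher in 22RV1 and slightly lower in DU145, with a difference of 0.43 (SE 0.12, adjusted p = 0.021). The non-catalytic beta subunit PSMB2 was at 186, 167, 242 and 233 CPM with PBS and at 235, 212, 230.3 and 232 CPM with H2O2. It was higher in 22RV1 and nearly level in DU145, with a difference of 0.38 (SE 0.11, adjusted p = 0.018). PSMD11, a lid subunit, was at 126, 121, 311 and 311 CPM with PBS and at 168, 165, 325 and 341 CPM with H2O2, higher in all 4 pairs but more so in 22RV1 (difference 0.34, SE 0.10, adjusted p = 0.035). The chaperone PSMD5 had a difference of 0.39 (SE 0.13, adjusted p = 0.041). PSMD5 was at 41.97, 40.6, 102 and 111 CPM with PBS and at 52.2, 48.8, 98.5 and 100.2 CPM with H2O2. PSMD11 and PSMD5 lost the call in 7 of 8 settings. Fewer members were called when any of the 4 pairs was omitted, which leaves 1 pair in a line. Those called without the 22RV1 Vector pair included PSMD10, which is outside the 7. Total counts in place of TMM gave 10 members with the larger value in 22RV1.

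No ATPase gene was among the 7, and the differences of the 6 ATPases lay between -0.04 and 0.04 with SEs of 0.11 to 0.13. PSMC4 had nearly equal values in the lines, 0.60 (SE 0.08) in 22RV1 and 0.57 (SE 0.08) in DU145, as did PSME1, with -0.37 in both lines (SE 0.10 and 0.11). In the antigen processing and interferon list, 9 of 15 genes were called with a larger H2O2 effect in 22RV1 and 0 with a smaller one. Over all genes, 8.76% and 7.54% were called. The fitted differences of the 15 genes ran from -0.33 to 2.99. In the NRF1 pathway list 2 of 11 were called with a larger and 2 with a smaller effect in 22RV1. DDI2, the protease that activates NRF1, was singled out after its values were seen: its log2 fold change was -0.14 (SE 0.09) in 22RV1 and 0.93 (SE 0.09) in DU145, a difference of -1.07 (SE 0.13, adjusted p = 2.46e-05 in edgeR's test).

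**Figure D4:**
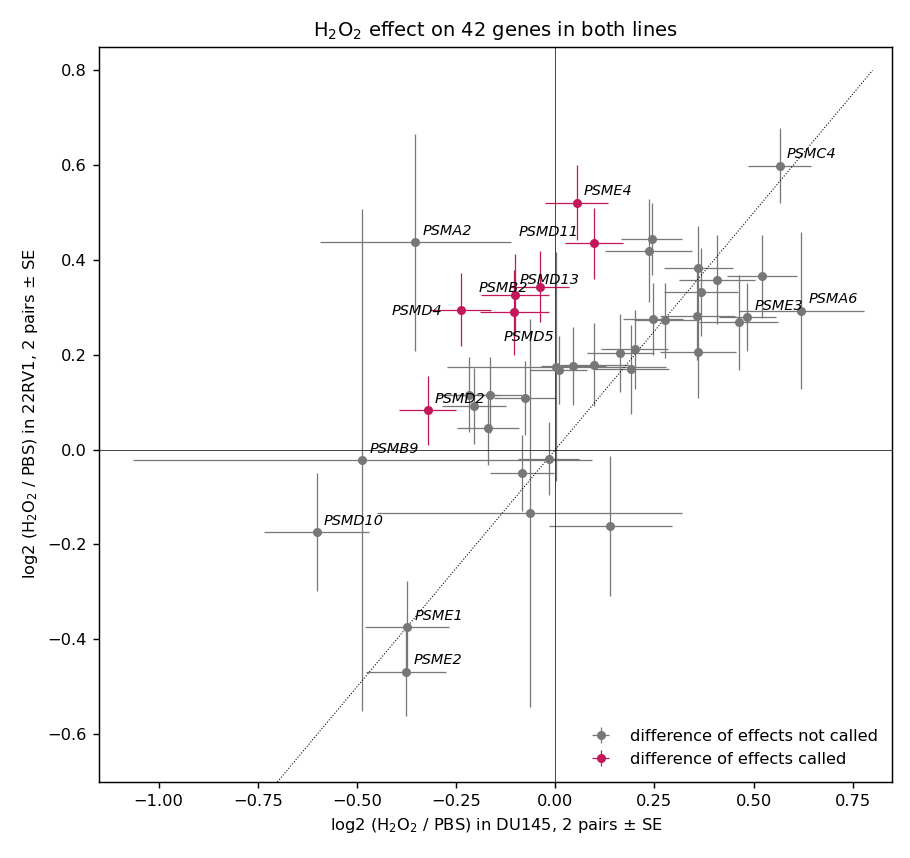
Log2 fold change with H2O2 in 22RV1 (vertical axis) against DU145 (horizontal axis) for the 42 genes, from the edgeR fit, with bars of 1 SE; the dotted line marks equal effects. The 7 genes whose difference was called (pink) all lie above the dotted line, and PSMC4, PSME1 and PSME2 lie near it.

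The study's own question was what PAGE4 does. In edgeR's quasi-likelihood test over the 4 pairs of PAGE4 and Vector libraries, 0 of the 42 genes were called in either direction, and 0.174% of all genes were called. DESeq2's Wald test called 0 members as well. At an unadjusted p under 0.05, 1 member passed, PSME1, with a log2 fold change of 0.24 (SE 0.08, adjusted p = 0.44 in edgeR's test). The member median was 0.02, beside -0.01 over all genes. Apart from the low-count PSMB8, PSMB9 and PSMB10 and the overlapped PSMA2, the members lay between -0.16 (PSMD9, SE 0.11) and 0.24 (PSME1). The median SE of the 42 genes was 0.07.

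The PAGE4 effect differed between the lines for 0 members in edgeR's test, where 1.84% of all genes were called, with 4 members at an unadjusted p under 0.05 and 0 in DESeq2's Wald test. Within 22RV1, 0 members were called and 6 passed at an unadjusted p under 0.05. Within DU145, 0 were called and 1, PSMB7, passed at an unadjusted p under 0.05. In those within-line fits 4.28% and 0.17% of all genes were called. The H2O2 effect did not pass the test of a difference between PAGE4 and Vector cells for any member, in edgeR's test or in DESeq2's. It passed for 0 of all genes (0% called), with 59 genes and 0 members at an unadjusted p under 0.05. These differences had a median SE of 0.23, beside 0.07 for the PAGE4 effect. In this fit, differences of the H2O2 effect between the lines count as spread, so the absence of calls does not show equal responses. In single pairs, the members over 1.5-fold between PAGE4 and Vector cells were PSMB9, lower with PBS in 22RV1, PSMB8, higher with H2O2 in 22RV1, PSMB9, lower there, and PSMB9, higher with H2O2 in DU145. In DU145 cells with PBS, 0 passed. Over all genes in these pairs, 8.35% and 11.3%, 11.1% and 12.1%, 7.54% and 7.76%, and 7% and 8.2% were over 1.5-fold higher and lower in 22RV1 with PBS, 22RV1 with H2O2, DU145 with PBS and DU145 with H2O2. All of these members had 9 to 64 reads, and none remained when a mean of at least 50 was required.

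The last comparison set the level of the genes in 22RV1 against DU145, with the 4 conditions as blocks. Most of the proteasome was higher in DU145, with PSME1, PSME2, PSMB10 and PSMC2 standing out the other way. In edgeR's quasi-likelihood test, 6 members were higher in 22RV1 and 23 were lower, where 31.9% and 28.5% of all genes were called. The member median was -0.40, beside 0.08 over all genes. The libraries of the lines did not overlap for 26 of the 42 genes, against 53.11% of all genes. Scaling by total counts moved the median of all genes to 0.28 and gave 8 higher and 21 lower. The lines are 1 line each, so the test measures the spread between these libraries.

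By class, 8 of 11 non-ATPase genes were lower in 22RV1 and 1, PSMD6, was higher. The calls of PSMD6 and of PSMD8, among the lower genes, were each lost in 5 of 8 alternative settings, and that of PSMB1, a beta gene, in 6 of 8. In the alpha ring 3 of 7 were lower, among constitutive catalytic genes 2 of 3, among non-catalytic beta genes 3 of 4 and among ATPases 3 of 6. Of all genes, 28.5% were called lower and 31.9% higher, and each class holds few genes. PSMA6 had the lowest log2 ratio of 22RV1 to DU145, -1.32 (SE 0.17), with the overlap described above. It was followed by PSMD5 at -1.17 (SE 0.12) and PSMD11 at -1.17 (SE 0.11, adjusted p = 4.26e-05 in edgeR's test), whose 22RV1 libraries reached 168 CPM while its DU145 libraries began at 311 CPM. PSMB7 had -0.98 (SE 0.10), with at most 122 CPM in 22RV1 and at least 185 CPM in DU145. Among ATPases, PSMC2 alone was called higher in 22RV1, with 152 to 181 CPM against 81.2 to 98.9 CPM in DU145, a log2 ratio of 0.95 (SE 0.10, adjusted p = 6.54e-05 in edgeR's test).

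The activator genes diverged. PSME1 had the highest ratio of all members, 1.42 (SE 0.10, adjusted p = 1.22e-05 in edgeR's test), and PSME2 1.06 (SE 0.10), whereas PSME3 was lower in 22RV1 (-0.65, SE 0.10) and PSME4 was not called (-0.14, SE 0.12). Among inducible subunits, PSMB10 was higher in 22RV1 (1.00, SE 0.23), PSMB8 was lower (-1.04, SE 0.29) and PSMB9 was not called, and PSMB10 carries the overlap noted above. PSMB8 had only 26 to 67 reads a library. It lost its call in 2 of 8 alternative settings, without the PAGE4 libraries with PBS and without the Vector libraries with H2O2. Of the 15 other antigen processing and interferon genes, 11 were called lower in 22RV1, against the PSME1 and PSME2 direction, and 0 were called higher. Over all genes, 28.5% were called lower and 31.9% higher. Of the NRF1 pathway genes, 3 were higher and 5 lower in 22RV1, NFE2L1 being lower by a log2 ratio of -0.72 (SE 0.09).

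**Figure D5:**
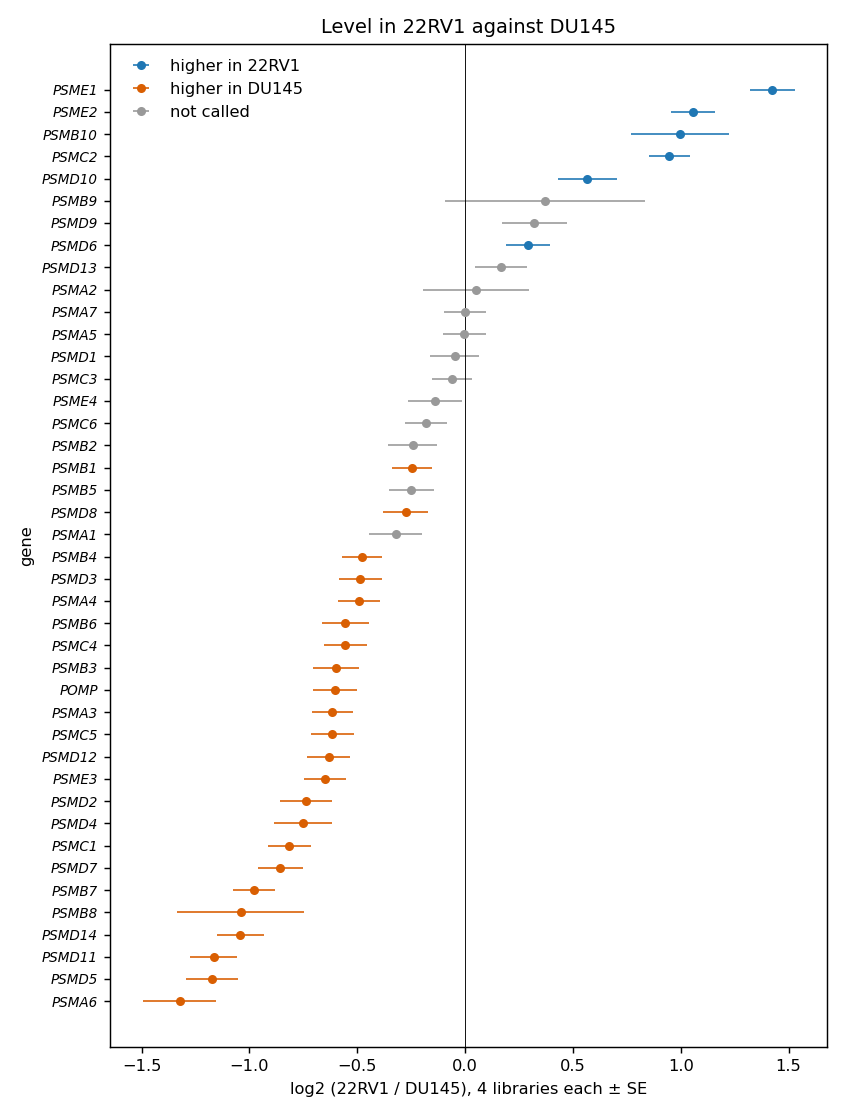
Log2 ratio of 22RV1 to DU145 for the 42 genes, ordered by the ratio, from the edgeR fit over 4 libraries of each line with bars of 1 SE. Blue marks the 6 genes called higher in 22RV1, led by PSME1, orange the 23 called higher in DU145 and grey the 13 not called.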

How the data were processed

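Per the labels, the authors used HISAT2 2.1.0 for alignment (build GRCh38) and featureCounts 1.6.0 for gene counts; strand, multimapping and annotation settings are not given in the sources used here. The deposited values are raw read counts, 1 table per line. The 42 genes and the pathway lists were chosen with earlier results of these data known. Tests used edgeR 4.0.16 (quasi-likelihood, TMM, filterByExpr, Benjamini-Hochberg over all 22418 genes tested, 0.05), with pair blocks over 8 libraries. DESeq2 1.42.0 was an alternative. SE is the log2 fold change over the root of F. In simulated counts, 150 of 200 genes changed 2-fold were recovered for H2O2 (20 false calls), 127 of 200 for its difference between lines (1 false), 181 of 200 for PAGE4 (24 false) and 112 of 200 for the line (18 false). The H2O2 changes of the called members over the pairs were smaller than 2-fold, and recovery at their size was not simulated. Single-pair ratios used DESeq2 size factors within a line, a pseudocount of 0.5, a mean of at least 10 and a fold of 1.5. Lengths are those of Ensembl canonical transcripts in GENCODE 44. Genes given with values in every library were the catalytic, activator and POMP genes, the highest and lowest H2O2 change of each other class, and the 6 called differences of lowest adjusted p. Other genes named were chosen after their values were seen. Depth was 25482984 to 43310401 counts, and intervals cover counting error only.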

Additional observations from a re-analysis of the deposited data

Results flagged for a closer look

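The effect of H2O2 differed between 22RV1 and DU145, by edgeR's quasi-likelihood test of the difference itself, for 7 of the 42 genes. As 22RV1 minus DU145 on the log2 scale, the differences were 0.53 for PSMD4, 0.47 for PSME4, 0.43 for PSMD13, 0.40 for PSMD2, 0.39 for PSMD5, 0.38 for PSMB2 and 0.34 for PSMD11. PSMD4 was called higher with H2O2 in 22RV1 and lower in DU145. The fitted values of PSMD13, PSMD5, PSMB2 and PSMD2 were also above 0 in 22RV1 and below 0 in DU145, and those of PSME4 and PSMD11 were above 0 in both lines. The share of MT-RNR1 in all counts also moved with H2O2 in DU145, from 1.04% to 4.32% in Vector cells and from 0.904% to 4.54% in PAGE4 cells, and stayed between 0.427% and 0.521% in 22RV1. Its part in these differences was not tested.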

How the results depend on the processing

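The tests of PAGE4, of its difference between lines and of the H2O2 difference between constructs called 0 members under every alternative run, and no called member changed direction in the other tests. Member medians of the differences between lines did change sign: for H2O2, from 0.06 to -0.02 without the filter and to -0.03 without the 22RV1 Vector pair, and for PAGE4, from -0.04 to 0.02 without either the 22RV1 or the DU145 pair with H2O2. The labels number no replicates, and the matched libraries form the blocks of the main tests. For H2O2 over 4 pairs, omitting a pair gave 1 to 8 genes higher and 0 to 1 lower, against 10 and 2, and total counts gave 16 and 1; with the cell line as block there were 15 and 3. Within 22RV1, omitting a pair gave 5 to 18 higher against 17, and total counts 29 higher and 1 lower. Within DU145, omitting a pair gave 3 to 17 higher and 0 to 6 lower, against 13 and 6. For the difference between lines, no filter gave 4 and omitting a pair 1 to 5, against 7; the cause was not tested. In single pairs with H2O2, total counts gave 8 genes over 1.5-fold against 3 in 22RV1 Vector (median 0.42 against 0.31) and 2 against 0 in 22RV1 PAGE4 (median 0.28 against 0.15). TMM gave 2 against 4 in DU145 PAGE4. A fold of 2 left 0, 1 and 0 in 22RV1 Vector, DU145 Vector and DU145 PAGE4, and 1 of 2 for PAGE4 in 22RV1 with H2O2. With a mean of at least 50, PAGE4 left 0 in 22RV1 with PBS, 22RV1 with H2O2 and DU145 with H2O2. Over all genes, total counts turned 1994 higher and 2512 lower with H2O2 into 2809 and 1795. Omitting a pair left 787 to 1826 higher and 1187 to 2054 lower. Its difference between lines, 1964 larger and 1691 smaller in 22RV1, was 1289 and 1499 in the Wald test. The PAGE4 test called 22 higher and 17 lower, 252 and 231 without the filter, 62 and 28 in the Wald test and 1 and 0 with the cell line as block. The difference of the PAGE4 effect between lines called 194 and 219, and 345 and 461 without the filter. The inducible subunits, at 9 to 235 reads, are limited by depth.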
